A study of Mus musculus with 6 samples.

Results

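S100 proteins and annexins are the calcium-regulated protein families examined here in mouse oviductal epithelial (MOE) cells with and without mutant p53. A gene was taken as a member if its deposited symbol began with S100a or Anxa followed by a digit, or was S100b or S100g. This gave 28 genes of 24569 with a single symbol, made up of 16 S100 genes and 12 annexins, represented by 30 transcript clusters of 41345 on the array. S100z and the S100 binding protein gene S100pbp lie outside the rule.

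S100 proteins are small EF-hand proteins that mostly work as dimers. Binding of calcium exposes a surface through which they hold on to target proteins, and some are also released and act on receptors such as Ager, the receptor for advanced glycation end products. Annexins bind to acidic phospholipids when calcium rises, and they organise membrane patches, vesicle traffic, actin attachment and the resealing of torn plasma membrane. The families meet in complexes such as S100a10 with Anxa2 and S100a11 with Anxa1, and several S100 proteins are known to bind p53 itself.

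Expression was measured on 6 arrays of MOE cells, a cultured line derived from the oviduct, the counterpart in mice of the human fallopian tube. The 3 empty vector arrays came from cells stably transfected with the pCMV-Neo plasmid, and the 3 p53 R273H arrays from cells stably transfected with a plasmid for p53 with the R273H change in its DNA-binding domain. All cells went through antibiotic selection and clonal isolation and were grown with serum, epidermal growth factor, insulin, transferrin, selenite and estradiol. RNA was taken at consecutive passages, so p-values measure the spread between passages. How many clones stand behind each line is unknown here, and a difference between clones cannot be told apart from an effect of the plasmid.

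All values below are deposited log2 expression values, and differences are p53 R273H minus empty vector on that scale. The median value of an array lay between 4.51 and 4.58, and arrays of one group correlated at 0.991 to 0.993 (Pearson's r over genes, which are not independent replicates) and arrays of different groups at 0.963 to 0.966. Levels of different probe sets are not comparable, so no member's level is ranked against another's. The median of all transcript clusters, 4.53, serves as a mark below which signals are called dim, since the files do not say what exceeds background. Of 12 oviductal epithelial markers 3 rose and 5 fell, against 11.9% and 11.7% of all genes. The lineage factor Pax8 was at 10.21 and 10.48 with empty vector and p53 R273H, and the keratin Krt18 at 11.02 and 11.27. The epithelial adhesion gene Epcam was dim in both groups, at 4.05 and 4.03, and E-cadherin Cdh1 was at 5.04 and 5.23. These 4 did not pass the test. Of the markers that changed, Pgr, Esr1 and Krt7 rose by 6.19, 3.61 and 1.80. Krt19 fell by 2.50, the transcription factor Wt1 fell by 1.93, the oviductal glycoprotein gene Ovgp1 fell by 1.28, Krt8 fell by 1.19 and the ciliated cell factor Foxj1 fell by 0.88. Of 8 mesothelial markers, which include Krt19 and Wt1, 5 fell and 2 rose, against the same shares of all genes. Their median difference was -1.43, against 0.02 for all genes. Their summed level was 11.54 to 11.65 with empty vector and 10.06 to 10.08 with p53 R273H. Among them Msln fell by 0.92, Podxl fell by 2.46 and Aldh1a2, a retinoic acid synthesis enzyme, fell by 3.39, while Upk3b and Upk1b rose by 1.00 and 0.43. The part of these marker changes in the results below was not tested. Fewer cells of a type and less RNA per cell cannot be told apart in such bulk samples.

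Anxa11, Anxa6, Anxa3, Anxa9, Anxa1, S100a13 and S100g rose in p53 R273H cells and Anxa8 fell. Of 12 annexins, 5 rose and 1 fell at an adjusted p under 0.05 by limma, a linear model fitted over all genes with Benjamini-Hochberg adjustment. Of 16 S100 genes, 2 rose and 0 fell, and 5 had an unadjusted p under 0.05. Among all genes tested, 11.9% rose and 11.7% fell, 23.7% in either direction, and 33.7% had an unadjusted p under 0.05. Among genes at or above the dim mark in a group, 18.2% rose and 18.3% fell. Of the 28 members 5 passed the test with at least a 2-fold difference, 4 of them upward, against 5.56% of all genes and 2.56% upward. A difference between the families in the share that changed was not tested. The median difference was 0.21 for the annexins and 0.14 for the S100 genes, against 0.02 for all genes. In 15 of the 28 members every array of one group lay above every array of the other, against 38.1% of all genes. The authors' deposited table gives 8 of the 28 a step-up p-value under 0.05, against 17.8% of all genes. Dim in both groups were 5 of the 28 members and 9676 of all 24569 genes, so shares over all genes are not like for like.

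**Figure D1:**
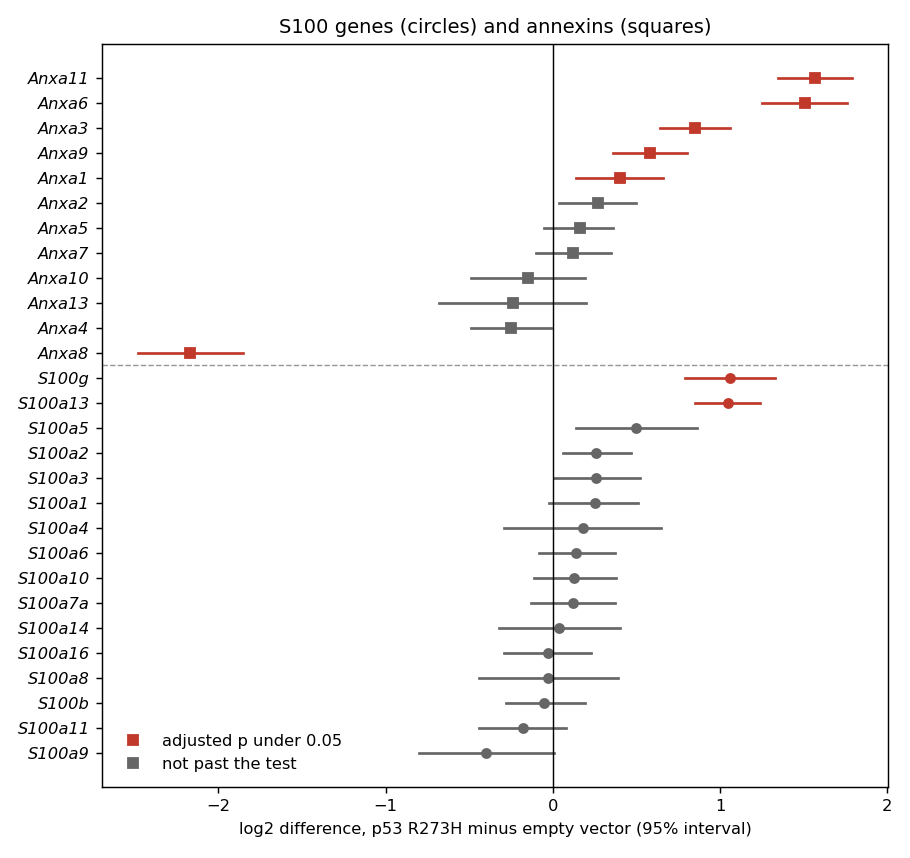
Log2 difference between p53 R273H and empty vector cells for each annexin (squares, above the dashed line) and S100 gene (circles), with 95% confidence intervals from limma, 3 arrays per group. Red marks an adjusted p under 0.05. Anxa8 lies alone on the left at -2.17, Anxa11 and Anxa6 lie farthest right at 1.57 and 1.51, and S100g and S100a13 lie near 1.06 and 1.05.

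Anxa11 showed the largest rise of the members. Annexin A11 binds RNA granules and the lysosome membrane, and its flexible N-terminal part binds S100a6 (calcyclin) and the penta-EF-hand protein Pdcd6. The chosen transcript cluster of Anxa11 read 9.77, 9.85 and 9.84 with empty vector and 11.50, 11.38 and 11.29 with p53 R273H. Every p53 R273H array was above every empty vector array. The gene rose by 1.57 ± 0.10 (SE, n = 3 per group), a 2.97-fold difference, with a limma adjusted p of 1.9e-05. Another transcript cluster for Anxa11, at values of 7.73 to 7.82 and 9.12 to 9.21, differed by 1.39 ± 0.09, and a further one held the same numbers as the chosen one.

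Anxa6 rose by nearly the same amount. Annexin A6 carries a duplicated annexin core, binds to the plasma membrane and late endosomes, and takes part in cholesterol distribution and membrane repair. It read 8.37, 8.36 and 8.41 with empty vector and 9.72, 10.06 and 9.88 with p53 R273H. The empty vector arrays lay close together, and every p53 R273H array was higher. The difference was 1.51 ± 0.11 (SE, n = 3 per group), 2.84-fold, with a limma adjusted p of 4.69e-05.

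Anxa8 was the annexin that fell. Annexin A8 is found in squamous and other epithelia, where it associates with late endosomes. It read 7.86, 7.61 and 7.80 with empty vector and 5.34, 5.76 and 5.67 with p53 R273H. All 3 p53 R273H arrays were far below the lowest empty vector array. It fell by 2.17 ± 0.13 (SE, n = 3 per group), so the level with empty vector was 4.48-fold that with p53 R273H (limma adjusted p = 2.13e-05).

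Anxa11 and Anxa8 lie on the same chromosome, mouse 14, and moved in opposite directions. The bases before their starts are shown because they belong to the largest rise and the largest fall among the members. The windows are RefSeq sequences of build GRCm38.p6, 250 bases up to the start of the gene, at chr14:25841905-25842154 (+ strand) for Anxa11 and chr14:34085729-34085978 (+ strand) for Anxa8. The search covered 6 motifs on both strands, and capitals mark matches.
Anxa11: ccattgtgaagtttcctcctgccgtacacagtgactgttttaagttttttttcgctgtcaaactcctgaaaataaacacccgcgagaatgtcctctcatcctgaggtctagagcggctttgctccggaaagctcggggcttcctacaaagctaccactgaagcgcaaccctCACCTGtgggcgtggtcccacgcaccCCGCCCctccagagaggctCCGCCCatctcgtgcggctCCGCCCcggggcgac
Anxa8: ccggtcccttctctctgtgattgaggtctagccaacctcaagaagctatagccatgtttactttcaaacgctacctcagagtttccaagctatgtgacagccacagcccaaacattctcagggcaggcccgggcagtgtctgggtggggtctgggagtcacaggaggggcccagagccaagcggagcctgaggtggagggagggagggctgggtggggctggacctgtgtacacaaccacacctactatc
The capitals in the Anxa11 window are an E2-box (CACCTG, also read as CAGGTG) and 3 GC boxes (GGGCGG, here as CCGCCC). Of 32851 such windows of the mouse genome table, 17.2% held an E2-box and 32.7% a GC box. The Anxa8 window held no match to those, to an AP-1 site (TGANTCA), to a CCAAT box (CCAAT), to an estrogen response element (GGTCA, any 3 bases, then TGACC) or to a p53 half-site. Both windows had a GC content of 58.0%, with 17 CpG dinucleotides in that of Anxa11 and 4 in that of Anxa8, against a median of 6 over all windows. A match describes the letters and shows no binding.

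Genes of chromosome 14 at or above the dim mark had a median difference of -0.28, and 40% of these 493 genes fell while 6.09% rose. Anxa11 thus moved against most called genes of its chromosome and Anxa8 with them. The genes flanking Anxa8, which were Antxrl, A630023A22Rik, Ppyr1 and Gprin2, had differences between 0.05 and 0.16 that did not pass the test. All of them but Gprin2 were dim in both groups. Of the genes flanking Anxa11, Ppif fell by 1.13 and D14Ertd449e fell by 0.63, and Zcchc24 and Plac9 did not pass the test. Anxa7, also on chromosome 14 and a partner of the calcium sensor sorcin, read 8.03, 7.91 and 8.09 against 8.23, 8.11 and 8.07, overlapping groups (difference 0.12 ± 0.10, limma adjusted p = 0.438). The part of the chromosome in these results was not tested.

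Anxa3 rose by less than Anxa6. Annexin A3 is abundant in neutrophils and is also made by epithelial tumours. It read 11.55, 11.44 and 11.52 with empty vector and 12.31, 12.32 and 12.43 with p53 R273H, with no overlap. The rise was 0.85 ± 0.09 (SE, n = 3 per group), 1.81-fold, with a limma adjusted p of 0.000352. Anxa3 lies on chromosome 5, where the 926 genes at or above the dim mark had a median difference of 0.47 and 57% of them rose. Its next genes Bmp2k and Paqr3 rose by 1.34 and 0.66. The preceding genes Fras1, dim in both groups, and Mrpl1, at 0.09 and 0.26, did not pass the test. The part of the chromosome in the rise of Anxa3 was not tested.

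Of the genes next to Anxa6 on chromosome 11, Gpx3 and Gm2a rose by 0.92 and 0.36 and Tnip1 fell by 0.81. Ccdc69, at 0.25, did not pass the test. Over the 8 members that passed the test, 2 protein-coding genes on either side of each were taken. Of these 32 neighbours 4 rose and 7 fell, against 11.9% and 11.7% of all genes. Among the neighbours that rose or fell, 4 moved in the direction of their member.

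Anxa9 and Anxa1 were the other annexins to pass the test upward. Annexin A9 is an atypical annexin whose calcium-binding sites are degenerate, and it read 5.45, 5.36 and 5.39 with empty vector and 6.04, 5.86 and 6.04 with p53 R273H. All p53 R273H arrays were higher, and the gene rose by 0.58 ± 0.10 (SE, n = 3 per group), 1.49-fold, with a limma adjusted p of 0.0033. Its neighbours Prune and Setdb1 on chromosome 3 fell by 0.40 and 0.52, while Fam63a and Lass2, at -0.42 and 0.12, did not pass the test.

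Annexin A1 is a glucocorticoid-induced protein that restrains inflammation through formyl peptide receptors. Anxa1 read 10.43, 10.26 and 10.25 with empty vector and 10.73, 10.56 and 10.86 with p53 R273H. The groups did not overlap, but the gap between them was narrow. It rose by 0.40 ± 0.11 (SE, n = 3 per group), 1.32-fold, with a limma adjusted p of 0.035. This call rested on single arrays, since the adjusted p was 0.109 without empty vector replicate 2, 0.108 without empty vector replicate 3, 0.0845 without p53 R273H replicate 1 and 0.101 without p53 R273H replicate 3. The step-up p-value in the authors' deposited table was 0.103.

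Anxa2 and its partner S100a10 did not pass the test. They form a complex in which S100a10, which does not need calcium, ties annexin A2 molecules together under the plasma membrane and binds plasminogen at the cell surface. Anxa2 read 10.68, 10.55 and 10.58 with empty vector and 10.81, 10.80 and 11.01 with p53 R273H, values that did not overlap. Its difference was 0.27 ± 0.10 (95% interval 0.04 to 0.50, limma adjusted p = 0.096). S100a10 read 9.38, 9.38 and 9.59 against 9.65, 9.48 and 9.61, which overlapped, with a difference of 0.13 ± 0.11 (95% interval -0.11 to 0.38, adjusted p = 0.437). Ahnak, the large scaffold protein that binds this complex, rose by 0.67 ± 0.10 and its relative Ahnak2 by 0.89 ± 0.12.

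Anxa5, whose protein binds exposed phosphatidylserine, read 10.74, 10.76 and 10.88 with empty vector and 10.94, 10.93 and 10.99 with p53 R273H. The groups were separate by a small margin and the difference was 0.16 ± 0.09 (limma adjusted p = 0.282). Anxa4, an epithelial annexin of apical membranes, had a difference of -0.25 ± 0.10 without overlap (adjusted p = 0.131). The intestinal and renal Anxa13 was at -0.24 ± 0.19, and Anxa10, a gastric annexin, was dim in both groups at 3.16 and 3.01. The 6 annexins that did not pass the test had differences from -0.25 to 0.27.

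**Figure D2:**
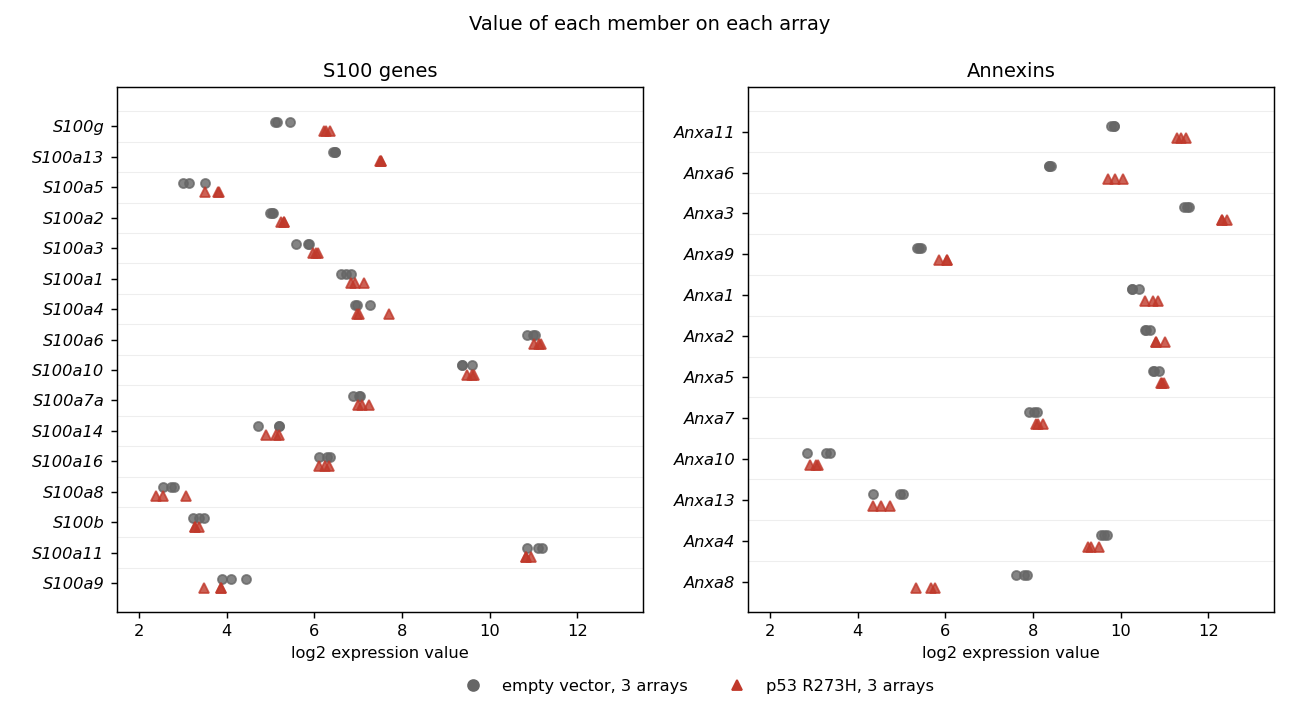
Log2 expression value of each S100 gene (left) and annexin (right) on each array, with 3 empty vector arrays as grey circles and 3 p53 R273H arrays as red triangles. Rows are ordered by the difference, and positions are not comparable between genes. The groups stand clear of each other for Anxa8, Anxa11, Anxa6, Anxa3, S100a13 and S100g, and S100a4 has a single p53 R273H array at 7.70 above the rest.

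S100a13 rose, with little spread between the arrays of either group. S100A13 takes part in the release of FGF1 and interleukin 1 alpha, which leave cells without a signal peptide. It read 6.47, 6.44 and 6.48 with empty vector and 7.52, 7.53 and 7.49 with p53 R273H, the tightest groups among the members that rose. The difference was 1.05 ± 0.08 (SE, n = 3 per group), 2.07-fold, with a limma adjusted p of 7.89e-05.

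S100a13 starts head to head with S100a1, which encodes a regulator of calcium handling in heart and skeletal muscle. The RefSeq windows of build GRCm38.p6 place 104 bases between the starts, at chr3:90514331-90514434, and this stretch is shown on the + strand, on which S100a13 is read, because the genes share it.
S100a13 and S100a1, between the starts: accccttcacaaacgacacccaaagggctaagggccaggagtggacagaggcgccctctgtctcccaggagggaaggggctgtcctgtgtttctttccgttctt
It held 0 matches to the 6 motifs, so no letter is in capitals. S100a1 read 6.61, 6.73 and 6.83 with empty vector and 7.14, 6.84 and 6.93 with p53 R273H, and its difference of 0.25 ± 0.11 missed the threshold (limma adjusted p = 0.177), although its groups did not overlap. The value of S100a13 minus that of S100a1 was -0.14, -0.28 and -0.35 on the empty vector arrays and 0.38, 0.70 and 0.55 on the p53 R273H arrays. This within-array difference shifted by 0.80, and the exact two-sided permutation p was 0.1, which no arrangement of 3 against 3 arrays can go below. The pair was picked after its values were seen, so this p-value adds nothing to them. Whether the probe sets keep transcripts of opposite strands apart was not tested.

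S100g was the other S100 gene that rose. It encodes calbindin-D9k, a calcium buffer that carries calcium across the intestinal cell under vitamin D and is known as an estrogen-induced protein of the rodent uterus. It read 5.14, 5.11 and 5.45 with empty vector and 6.27, 6.37 and 6.23 with p53 R273H, with no overlap. The rise was 1.06 ± 0.12 (SE, n = 3 per group), 2.08-fold, with a limma adjusted p of 0.000429. On the same arrays the estrogen receptor gene Esr1 went from 4.52 ± 0.28 to 8.13 ± 0.06 and the progesterone receptor gene Pgr from 3.48 ± 0.17 to 9.67 ± 0.04 (SD, n = 3 per group), and their part in the rise of S100g was not tested. S100g lies on the X chromosome, where 40.8% of 458 genes at or above the dim mark fell and 5.02% rose. Its neighbours Ctps2 and Ap1s2 fell by 0.56 and 0.62. Syap1 and Grpr, the latter dim in both groups, were at -0.09 and 0.14 and did not pass the test.

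The 250 bases before S100g are shown because an estrogen response element could be sought there. They lie at chrX:162964600-162964849 (- strand) in RefSeq build GRCm38.p6.
S100g: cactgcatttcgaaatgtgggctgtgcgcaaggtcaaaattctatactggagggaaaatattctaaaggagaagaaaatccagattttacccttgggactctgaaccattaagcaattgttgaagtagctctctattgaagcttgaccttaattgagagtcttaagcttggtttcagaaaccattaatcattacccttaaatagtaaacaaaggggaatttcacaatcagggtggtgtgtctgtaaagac
No capitals appear, as none of the 6 motifs matched. A full estrogen response element was found in 0.0639% of all windows and in 0 of the 22 members that had a window. With so rare a motif, its absence from these windows says little. Bases outside the windows were not searched, and GGTCA or TGACC standing alone was not among the motifs. The S100g window had a GC content of 38.4% and 2 CpG dinucleotides. AP-1 sites were found for Anxa10, Anxa2, S100a11 and S100a16, and a p53 half-site for Anxa1, S100a3 and S100a9, against 6.75% and 7.13% of all windows. Some members had several windows, so their share is not comparable with that of single windows.

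S100a5 and S100a2 lay just outside the threshold. S100a5, known from olfactory neurons, read 3.00, 3.50 and 3.14 with empty vector and 3.81, 3.50 and 3.83 with p53 R273H, all dim and touching at 3.50. Its difference of 0.50 ± 0.16 had a limma adjusted p of 0.0544, which was 0.0212 without empty vector replicate 2 and 0.0406 without p53 R273H replicate 2. S100a2, whose human counterpart is a target of p53 family factors in keratinocytes, read 4.98, 5.04 and 5.05 against 5.24, 5.32 and 5.30. Its groups did not overlap, and the difference was 0.26 ± 0.09 (limma adjusted p = 0.0632). The authors' deposited table gives S100a2 a step-up p-value of 0.017. S100a3, a protein of the hair cuticle, differed by 0.26 ± 0.11 (limma adjusted p = 0.133).

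S100a6 and S100a11, widely expressed in epithelia, did not pass the test. S100a6, or calcyclin, read 10.86 to 11.03 on the 3 empty vector arrays and 11.13, 11.17 and 11.02 with p53 R273H, which overlap (difference 0.14 ± 0.10, limma adjusted p = 0.364). S100a11, a partner of annexin A1, read 10.86, 11.19 and 11.10 against 10.94, 10.84 and 10.84 (difference -0.18 ± 0.11, adjusted p = 0.329). The interval of S100a11 ran from -0.44 to 0.08 and that of S100a6 from -0.08 to 0.37, so a difference past 0.44 in size lay outside both.

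S100a4, also called metastasin or fibroblast-specific protein, binds non-muscle myosin and is often used as a marker of mesenchymal change. It read 6.98, 7.28 and 6.92 with empty vector and 7.03, 6.98 and 7.70 with p53 R273H. The value of 7.70 on p53 R273H replicate 3 stood above the other arrays, which overlapped. The difference was 0.18 ± 0.20 (95% interval -0.29 to 0.65, limma adjusted p = 0.611), and -0.05 without that array. Its partner Myh9, a non-muscle myosin heavy chain, fell by 0.65 ± 0.10, and Myh10 fell by 1.78 ± 0.12. The fibroblast proteoglycan gene Dcn rose by 4.70 ± 0.10, while Lum, another fibroblast gene, was dim in both groups at 2.71 and 2.77. Of 10 fibroblast markers 3 rose and 1 fell, against 11.9% and 11.7% of all genes. Dcn, Pdgfra and Col1a1 rose, and Col1a2 fell by 1.04. The 10 markers had a summed level of 7.97 to 8.16 with empty vector and 9.02 to 9.12 with p53 R273H. Without Dcn it was 7.91 to 8.11 and 8.08 to 8.18, a sum in which probe sets weigh by their own signal. The part of these markers in the S100a4 values was not tested.

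The subunits of calprotectin, the metal-binding antimicrobial protein of neutrophils, were dim. S100a8 read 2.79, 2.55 and 2.74 with empty vector and 2.38, 3.07 and 2.55 with p53 R273H, overlapping groups (difference -0.03 ± 0.18, limma adjusted p = 0.94). S100a9 read 4.09, 3.89 and 4.45 against 3.48, 3.88 and 3.88, which did not overlap by a narrow margin (difference -0.40 ± 0.17, adjusted p = 0.153). Of 15 myeloid markers 11 were dim in both groups, against 9676 of all 24569 genes. Among the 11 were Itgam, Lyz2, Ly6g and Mpo. Above the dim mark in both groups were Cd68 at 8.05 and 7.32, Csf1r at 5.91 and 6.23 and Cxcr2 at 5.21 and 5.26. Elane was above it with p53 R273H only. Of the 15, 1 rose and 1 fell, against 11.9% and 11.7% of all genes. The pan-leukocyte gene Ptprc rose by 0.60 ± 0.13 between dim levels of 3.50 and 4.10, and Cd68 fell by 0.73 ± 0.09. With quantile normalization 3 of the 15 rose. The summed level of that list, as log2 of summed signals, was 9.0 to 9.11 with empty vector and 8.77 to 8.85 with p53 R273H, and its part in these values was not tested.

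S100b, the S100 protein of glia that is known to bind p53, read 3.23, 3.36 and 3.49 with empty vector and 3.29, 3.27 and 3.38 with p53 R273H. These dim values overlapped, with a difference of -0.05 ± 0.10 (limma adjusted p = 0.808). Of 8 glial markers 1 rose and 1 fell, against 11.9% and 11.7% of all genes. Ngfr fell by 1.22 ± 0.22, Erbb3 rose by 0.82 ± 0.10, and the defining factor Sox10 was at 4.82 and 4.80. Of 8 keratinocyte markers 6 were dim in both groups, against 9676 of all 24569 genes. Of these 8, 1 rose, the dim Trp63 by 0.44, against 11.9% of all genes. The epithelial genes S100a14 and S100a16 and the skin gene S100a7a had differences of 0.04, -0.03 and 0.12 with overlapping groups. In all, the 14 S100 genes that did not pass the test had differences from -0.40 to 0.50, and 4 of them were dim in both groups.

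Most S100 genes lie together on mouse chromosome 3, around the epidermal differentiation complex, whose genes build the cornified envelope of skin. Of the 14 S100a genes there 1 rose, against 11.9% of all genes. The direct neighbours of S100a13, namely 2500003M10Rik, S100a1, S100a14 and S100a16, did not pass the test. Between the first and last S100a gene, in the order of the RefSeq table, 52 other protein-coding genes were measured. Of these 4 fell and 1 rose, against 11.7% and 11.9% of all genes. Dim in both groups were 40 of the 52, against 9676 of all 24569 genes. The median difference of those 52 genes was -0.01. Sprr1b, a small proline-rich precursor of the cornified envelope, went from 9.49 ± 0.07 to 5.09 ± 0.15 (SD, n = 3 per group). Sprr1b fell by 4.39 ± 0.11 (limma adjusted p = 3.09e-07), Sprr2f fell by 2.47, Sprr2e fell by 1.59, the envelope precursor involucrin (Ivl) fell by 1.32, and Lce3c rose by 0.83. Sprr1a, a relative of Sprr1b, was at 12.99 and 13.10 with no call. The transcribed pseudogenes Sprr2g and Sprr2j-ps of the same chromosome, outside this count of protein-coding genes, fell by 4.45 and fell by 3.16. Cross-hybridization among the closely related Sprr2 genes was not tested.

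**Figure D3:**
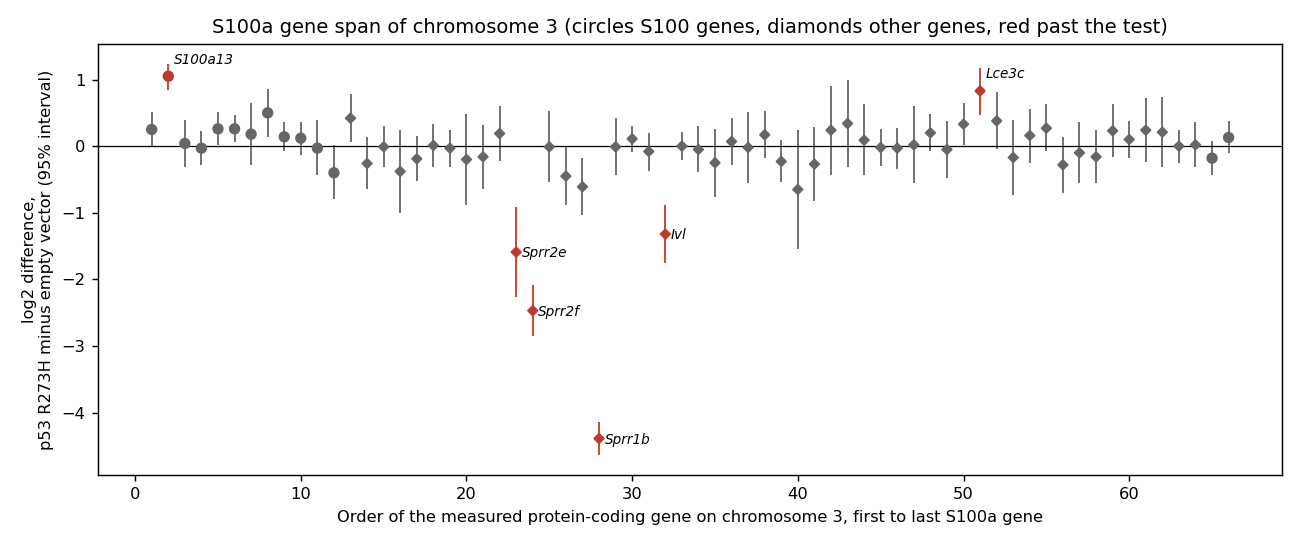
Log2 difference between p53 R273H and empty vector cells for the measured protein-coding genes from the first to the last S100a gene of chromosome 3, in chromosomal order, with 95% confidence intervals (3 arrays per group). Circles are S100 genes, diamonds are other genes and red marks an adjusted p under 0.05. S100a13 stands above its neighbours at 1.05, and Sprr1b lies lowest of the genes shown at -4.39; pseudogenes are not plotted.

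Partners and relatives of the families were described by 6 lists chosen with earlier results of these data known. Of 12 receptors for released S100 proteins and annexin A1, 2 rose and 1 fell, with a median difference of 0.03. Ager itself was at 5.36 and 5.53 with no call (difference 0.17 ± 0.19), and the formyl peptide receptors Fpr1 and Fpr2 were dim in both groups. The adhesion molecule Alcam rose by 1.36 ± 0.11, the toll-like receptor Tlr4, a receptor of calprotectin, rose by 0.74 ± 0.14, and the syndecan Sdc4 fell by 0.77 ± 0.09.

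Of 27 intracellular partners 7 rose and 4 fell, with a median of 0.08. Sorcin (Sri), the calcium sensor that binds annexin A7, rose by 0.77 ± 0.11. Mdm2, the ubiquitin ligase of p53 to which S100 proteins also bind, fell by 0.50 ± 0.09. Of 23 genes of plasma membrane repair 8 rose and 1 fell, with a median of 0.18. Ehd2, a membrane-remodelling ATPase of caveolae, rose by 1.25 ± 0.09, the calpain Capn2 rose by 0.91 ± 0.09, and the SNARE protein gene Vamp7 fell by 0.55 ± 0.09. Dysferlin (Dysf), the membrane repair protein that binds annexins, rose by 0.49 (limma adjusted p = 0.024).

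Of 44 other EF-hand genes 12 rose and 3 fell, with a median of 0.10. The neuronal calcium sensor Vsnl1 went from 5.19 ± 0.50 to 8.21 ± 0.18 (SD, n = 3 per group), and Cib2 rose by 1.18 ± 0.12. The growth regulator Cgref1 fell by 1.72 ± 0.11 and the centrin Cetn2 fell by 0.82 ± 0.12. Of 44 C2 domain and other membrane-binding genes 4 rose and 9 fell, with a median of -0.08. The synaptotagmin-like gene Sytl2 fell by 4.67 ± 0.10 and the synaptotagmin Syt13 fell by 3.05 ± 0.09, while the membrane tethers Esyt1 and Esyt2 rose by 1.33 ± 0.09 and 0.89 ± 0.08. Of 50 epidermal differentiation genes other than S100 genes 6 fell and 1 rose, with 36 dim in both groups, against 9676 of all 24569 genes. Its largest falls were in Sprr2g, which fell by 4.45 ± 0.10, and Sprr1b. Whether any of these lists differs from the 11.9% and 11.7% of all genes that rose and fell was not tested.

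**Figure D4:**
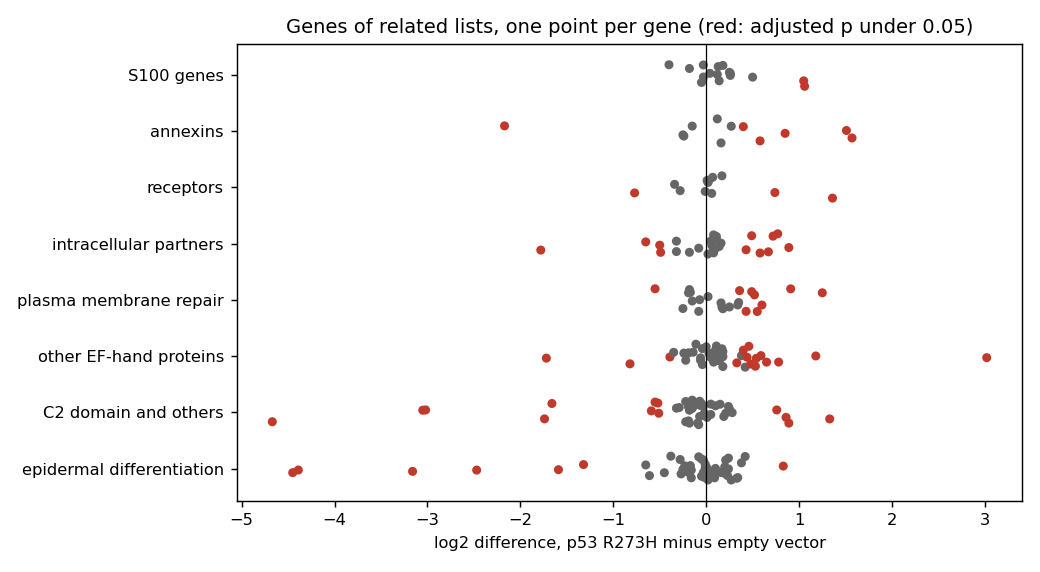
Log2 difference between p53 R273H and empty vector cells for each gene of the S100 and annexin families and of the 6 related lists, 1 point per gene, with red for an adjusted p under 0.05 and vertical scatter for legibility only. The S100 genes lie between -0.40 and 1.06, the annexins between -2.17 and 1.57, and the epidermal differentiation genes reach down to -4.45.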

How the data were processed

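The 6 arrays were deposited as log2 values of 41345 transcript clusters, with a table of their own comparison with a p-value, a step-up p-value, a ratio and a signed fold score, per the file headers. Log2 of the authors' ratio lay within 6.64e-05 of the mean difference computed here. An Affymetrix whole-transcript kit was used, per the labels, and no source read here names the array model or the normalization. Symbols came from the deposited table. A spreadsheet had turned 25 into dates, and 20 were restored through RefSeq accessions. Left out were 145 rows naming several genes. The transcript cluster with the highest mean stood for each of 24569 genes. The comparison used limma 3.58.1 under R 4.3.3 (lmFit, eBayes, two-sided, no covariates), adjusted by Benjamini-Hochberg over all genes, threshold 0.05, after a check on simulated data. The number of arrays limits the precision.

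The members, the 6 related lists and the 6 marker lists were chosen with earlier results of these data known. Every member is accounted for. Values of each array are given for members past the threshold and for well-known ones, and examples among the larger changes are named from the lists. Flanking genes, motifs, the comparison of S100a13 with S100a1 and the fibroblast sum without Dcn were chosen after values were seen. Of 28 members 22 had a promoter window in the RefSeq table. A few list entries, among them Stub1, Fer1l5, Mg53 (a synonym of Trim72) and Cpne1, were not used here. The correlations of same-numbered deviations from the group means were -0.071, 0.012 and 0.003. They cannot show whether a replicate number marks a shared passage, which is unknown here. Alternatives were other normalizations, filters on dim genes, other handling of several clusters, other variance models, a replicate block, stricter thresholds, the authors' p-values and leaving out each array.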

Additional observations from a re-analysis of the deposited data

How the results depend on the processing

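S100a13, S100g, Anxa8, Anxa9, Anxa3, Anxa6 and Anxa11 kept their direction and passed the test in all 16 alternatives that keep the threshold, among them each array left out and the authors' deposited step-up p-value. Anxa1 passed in 8 of 16, with adjusted p-values from 0.000559 to 0.109. Some members that did not pass the main test passed in alternatives. S100a2 did so in 6 of 16, Anxa2 and Anxa4 in 2 each, Anxa5 and S100a3 in 1 each, and S100a5 in 4 of 14. The number of S100 genes that rose, 2, was 4 with quantile normalization, 4 with array medians subtracted and 4 with dim genes under the 50th percentile left out, where fewer genes were tested. With an array left out it ran from 2 to 3. The number of annexins that rose, 5, was 2 when at least a 2-fold difference was required, and 4 to 5 with an array left out. It was 6 with the 50th percentile filter and 7 with a trended and robust variance. The number of annexins that fell, 1, was 2 with the 50th percentile filter and 2 with a trended and robust variance, Anxa4 being added. Over all genes 2932 rose and 2882 fell. At an adjusted p under 0.01 these were 1832 and 1837, at 2-fold or more 629 and 738, and with an array left out 2259 to 2467 and 2256 to 2509. With the replicate number as a block, 2 S100 genes rose and 4 annexins rose and 1 fell, Anxa1 being lost at an adjusted p of 0.0622. Of 234 counts of related lists and markers under 9 alternatives, 214 stayed within 1.5 times. For changes not explained by fewer genes tested or a stricter rule, the cause was not tested. Whether dim signals exceed background is unknown, which limits S100a5, S100a8, S100a9, S100b and Anxa10.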
